A study of Mus musculus with 6 samples.

Results

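Genes of inflammatory signaling were examined in RNA sequencing libraries of emerging hematopoietic cells from the mouse aorta. The set held 40 of the 24062 genes in the count tables: 6 genes of tumor necrosis factor (TNF) signaling, 9 NF-kB factors and their kinases, 12 genes of Toll-like receptor and interleukin 1 signaling, and 13 of interferon signaling. The members were taken as known genes of these pathways and not by a rule on their values, though earlier results of these data were known. All 40 were found by symbol in every library. The cells came from the aorta-gonad-mesonephros (AGM) region of mouse embryos at embryonic day 10.5, of strain C57BL/6JOlaHsd and Gata2Venus genotype. Per the study's methods the embryos were heterozygous for the reporter, so cells of both fractions carried 1 allele from which a fluorescent protein, Venus, is made together with Gata2. Cells positive for CD31 and ckit were sorted by Venus into an intermediate fraction (labelled G2Vi, here Vmed) and a high fraction (labelled G2Vh, here Vhigh), with 3 libraries each. How many embryos went into a library is not given in the sources used here.

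Inflammatory signaling is active in the embryo without infection and helps blood stem cells to form from aortic endothelium. TNF binds its receptors, most Toll-like receptors and the interleukin 1 receptor pass signals through the adaptor Myd88, and these routes meet at a kinase complex that releases NF-kB factors into the nucleus. Interferons act through receptor pairs and Janus kinases, which lead Stat and Irf factors to elements in the promoters of target genes. Primitive macrophages and other myeloid cells are known sources of such signals in the AGM.

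Total counts on genes lay between 8296831 and 12035206 per library. Genes with at least 1 count numbered 10427 in Vhigh replicate 1, against 12709 to 18460 in the other libraries. The genes of the sort were measured in all libraries, and *Kit*, the gene of ckit, had 59.1 to 208 CPM (counts scaled to 1000000 counts on genes in each library) in Vmed and 254 to 521 CPM in Vhigh. *Gata2* had 29.4 to 68.3 CPM in Vmed and 39.2 to 142 CPM in Vhigh, and *Pecam1*, the gene of CD31, had 118 to 569 and 160 to 436 CPM. Vhigh replicate 1 stood apart for the inflammatory genes as well. In it 20 of the 40 members had 3 counts or fewer, the level taken as the smallest that can be shown, against 4 to 6 in each of the other libraries. The change between the fractions is therefore given with and without it for *Tnf*, *Irak4*, *Il1r1* and *Irf3*. It is also given both ways for the tested members at 3 counts or fewer in this library alone.

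Of the 40 members, 36 passed edgeR's filter on low counts and were compared between the fractions. No member passed the threshold. In edgeR's quasi-likelihood test each of the 36 had an adjusted p of 0.9998, and 0 of 12688 genes tested (0%) had an adjusted p under 0.05. At an unadjusted p under 0.05 there were 0 members, beside 259 of all genes (2.04%), and edgeR's likelihood ratio test and DESeq2 also gave 0 members at either level. DESeq2 gave no p for *Tnf*. All genes called were 0.166% at an adjusted and 2.9% at an unadjusted p under 0.05 with the likelihood ratio test, and 0.402% and 3.89% with DESeq2. With the replicate number as a block, the likelihood ratio test called 0.583% of all genes and 0 members at an adjusted p under 0.05, and 5.95% of all genes and 1 member, *Stat2*, at an unadjusted p under 0.05. The smallest unadjusted p of a member was 0.219, for *Stat2*. The log2 fold change of Vhigh over Vmed was above 0 for 19 members and below 0 for 17, where 48.9% of all genes lay above 0 (47.8% by DESeq2). Its median was 0.07 over the members and -0.02 over all genes tested. It ranged from -2.84 (*Irf7*) to 2.58 (*Tnf*). The median standard error (SE) of a member's fold change was 1.45 on the log2 scale, so that changes of several fold could not be told from the spread between replicates. In the plot of fold changes, 6 of the 36 members (16.7%) lay more than 1 standard error from 0, beside 21.9% of all genes tested.

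**Figure D1:**
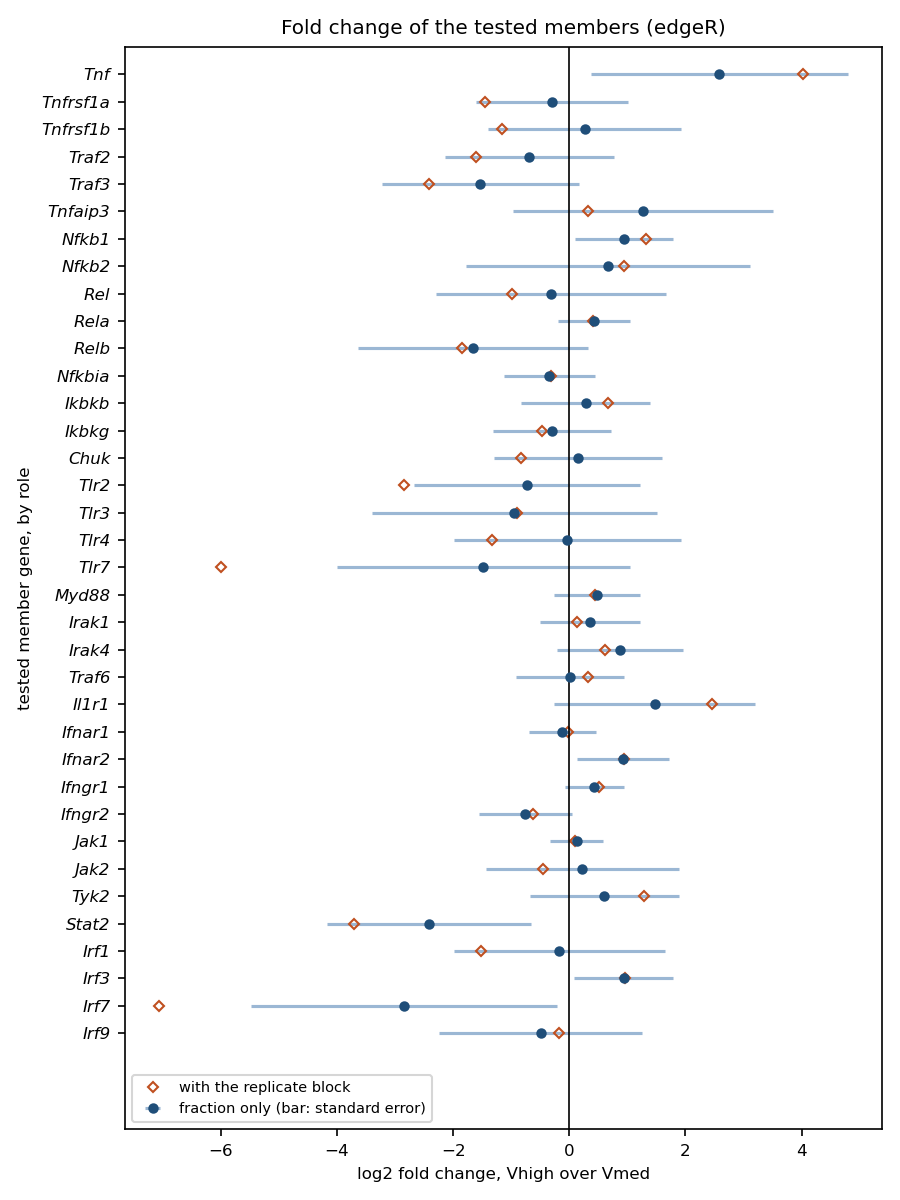
Log2 fold change of Vhigh over Vmed (x axis) for the 36 tested members (y axis, in order of role), from edgeR with the fraction as the only term (filled points, bars are standard errors) and with the replicate number as a block (open diamonds). The points lie on both sides of 0, and the longest bars belong to genes with few counts in some libraries, such as *Irf7* and *Tlr7*.

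Members were detected unevenly. Above 3 counts, 18 of the 40 were found in all 6 libraries (45%), 12 in 5 libraries, 8 in 1 to 4, and 2 in none. Of the 36 members that passed the filter, 50% were found in all 6, and of all genes tested 59.6% were. By role, all libraries held 6 of the 9 NF-kB factors and kinases, 7 of the 13 interferon genes, 4 of the 12 Toll-like receptor and interleukin 1 genes and 1 of the 6 TNF genes. Of the 36 tested members, 16 (44.4%) had 3 counts or fewer in Vhigh replicate 1, where 32.5% of all genes tested did. For 11 of them (30.6%) this was the single library at that level, beside 17.5% of all genes tested. These 11 were *Tnfrsf1b*, *Traf2*, *Traf3*, *Relb*, *Chuk*, *Tlr2*, *Tlr4*, *Jak2*, *Stat2*, *Irf1* and *Irf9*. In the heat map these genes form a dark column in that library, while *Rela*, *Nfkbia*, *Ifngr1* and *Jak1* are bright throughout. Without Vhigh replicate 1 the log2 fold change went from -0.68 to -0.10 for *Traf2*, -1.53 to -0.96 for *Traf3* and -1.66 to -1.08 for *Relb*. It went from -0.73 to -0.14 for *Tlr2*, -2.42 to -1.83 for *Stat2* and 0.27 to 0.85 for *Tnfrsf1b*. For *Jak2* it went from 0.23 to 0.80, and it turned from -0.03 to 0.55 for *Tlr4*. *Irf1* turned from -0.17 to 0.42 and *Irf9* from -0.49 to 0.08.

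**Figure D2:**
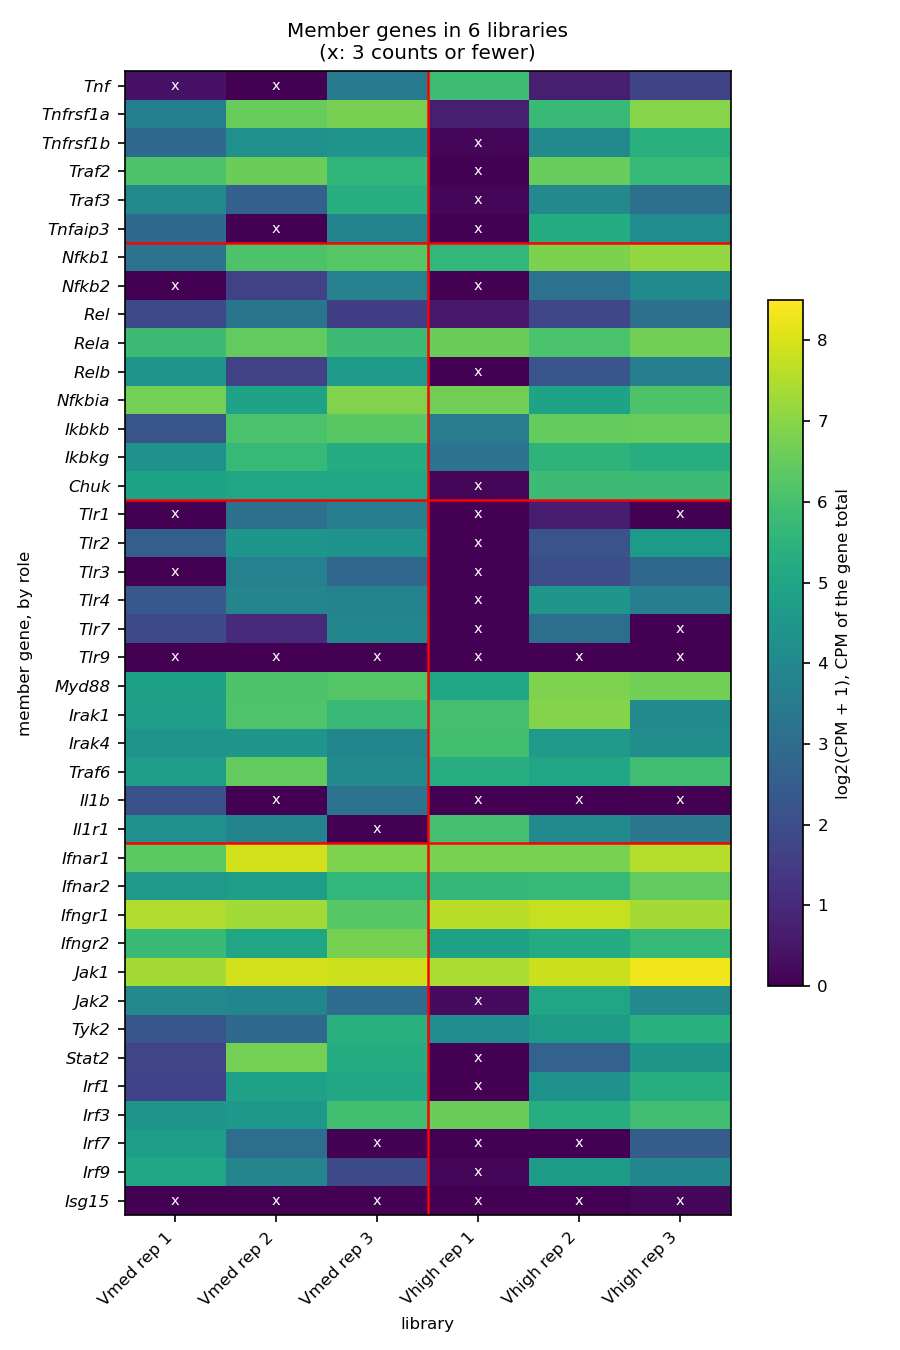
Expression of the 40 members (y axis, by role from TNF at the top to interferon at the bottom) in the 6 libraries (columns), as log2(CPM + 1) by color; an x marks 3 counts or fewer. Vhigh replicate 1 holds 20 marked genes and the other libraries hold 4 to 6 each.

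**Figure D3:**
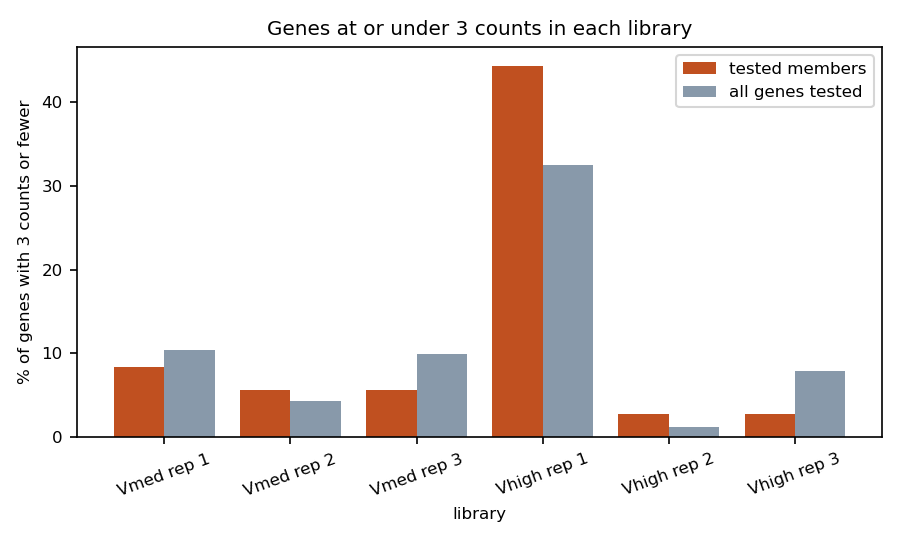
Percentage of genes with 3 counts or fewer (y axis) in each library (x axis), for the 36 tested members and for all 12688 genes tested. Vhigh replicate 1 reaches 44.4% of the members and 32.5% of all genes, and the other libraries stay at 8.33% of the members or less and 10.4% of all genes or less.

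*Tnf*, the ligand of the TNF axis, had uneven counts. It had 3, 0 and 100 counts in Vmed replicates 1, 2 and 3 and 615, 7 and 28 in Vhigh, which is 0.34, 0 and 10.3 CPM against 57.7, 0.64 and 2.33 CPM. A single library of each fraction thus held most of its counts, and the fractions overlapped. Its log2 fold change was 2.58 (SE 2.21, unadjusted p = 0.295 in edgeR's quasi-likelihood test) and turned to -1.30 without Vhigh replicate 1.

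The receptors of TNF were present in both fractions. *Tnfrsf1a*, the broadly expressed receptor, had 11.7, 91.7 and 107 CPM in Vmed replicates 1, 2 and 3 and 0.66, 51.6 and 123 CPM in Vhigh. *Tnfrsf1b*, the second receptor, had 6.52, 18.3 and 20.8 CPM in Vmed and 0.09, 15.7 and 40.6 CPM in Vhigh. Both were lowest in the libraries of replicate 1, and both fractions spanned similar ranges otherwise. Per kilobase of exon, *Tnfrsf1a* exceeded *Tnfrsf1b* in 6 of 6 libraries, with a ratio of RPKM from 2.64 to 10.3, although the highest ratio rests on 7 counts against 1 in Vhigh replicate 1.

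*Traf2* and *Traf3*, adaptors that couple TNF family receptors to kinases and to the breakdown of an NF-kB-inducing kinase, went to 0 and 1 count in Vhigh replicate 1. Elsewhere *Traf2* was steady, with 69.1, 94.5 and 47.5 CPM in Vmed and 91.1 and 51.4 CPM in Vhigh replicates 2 and 3. *Tnfaip3*, which encodes the feedback inhibitor A20, had 6.52, 0 and 13.3 CPM in Vmed and 0, 37.3 and 16.5 CPM in Vhigh. Its difference between the fractions was -5.14, 7.37 and 0.29 in log2 CPM for replicates 1, 2 and 3, so the pairs did not share a direction.

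Among the NF-kB subunits, *Nfkb1* and *Rela*, whose products p50 and p65 form the classical dimer, had counts in every library. *Nfkb1* (chromosome 3 of GRCm38, 135584655 to 135691547) had 8.35, 68.3 and 76.8 CPM in Vmed replicates 1, 2 and 3 and 49.0, 114 and 139 CPM in Vhigh. It was higher in Vhigh in each same-numbered pair, by 2.58, 0.59 and 0.84 in log2 CPM, while the fractions overlapped because Vhigh replicate 1 lay under Vmed replicates 2 and 3. Its log2 fold change was 0.94 (SE 0.84, unadjusted p = 0.296), and 1.32 (SE 0.59, unadjusted p = 0.0797) with the replicate number as a block, both from edgeR's quasi-likelihood test.

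*Rela* (chromosome 19, 5637483 to 5648130) was the steadiest of the 36 tested members. It had 55.8, 86.1 and 55.4 CPM in Vmed and 95.5, 68.0 and 102 CPM in Vhigh, a ratio of 1.84 between the highest and the lowest library. Its mean was 65.8 ± 17.6 CPM (SD, n = 3) in Vmed and 88.5 ± 18.1 CPM (SD, n = 3) in Vhigh, with a log2 fold change of 0.43 (SE 0.62). *Rela* and *Jak1* were the 2 members that varied less than 2-fold across the 6 libraries, where 3.78% of all genes tested did.

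The other subunits were lower and less even. *Rel*, which encodes c-Rel, had 2.75, 8.80 and 1.96 CPM in Vmed and 0.47, 2.49 and 7.89 CPM in Vhigh. Per kilobase of exon, *Rela* exceeded *Rel* in 6 of 6 libraries, by a ratio of 23.8 to 495. *Relb*, a subunit of the alternative pathway, had 21.3, 2.17 and 22.7 CPM in Vmed and 0, 3.78 and 11.5 CPM in Vhigh. *Nfkb2*, its partner, had 0, 2.17 and 12.1 CPM in Vmed and 0, 7.92 and 15.9 CPM in Vhigh, and was at 0 counts in both libraries of replicate 1.

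Of the regulators, *Nfkbia* encodes IkB-alpha, which holds NF-kB in the cytoplasm and is itself a target of NF-kB. It had 106, 29.4 and 117 CPM in Vmed and 99.6, 29.4 and 68.7 CPM in Vhigh, lowest in replicate 2 of both fractions. It was lower in Vhigh in each pair, by -0.03, -0.14 and -0.78 in log2 CPM, and its log2 fold change was -0.34 (SE 0.79). *Ikbkb*, the catalytic kinase of the classical pathway, had 3.66, 68.0 and 78.3 CPM in Vmed and 10.9, 88.8 and 91.0 CPM in Vhigh. It was higher in Vhigh in 3 of 3 pairs, but both libraries of replicate 1 were far below the other four.

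*Chuk*, which encodes the second kinase IKK-alpha, had 29.2, 31.5 and 33.6 CPM in Vmed and 0.09, 56.1 and 55.8 CPM in Vhigh. Its Vmed libraries lay close together, at 31.4 ± 2.19 CPM (SD, n = 3), and the Vhigh libraries split, with 1 count in replicate 1 and higher values in the others. Without Vhigh replicate 1 its log2 fold change was 0.74, against 0.15 with it. *Ikbkg*, the scaffold NEMO, ranged from 19.2 to 51.0 CPM in Vmed and from 8.35 to 45.2 CPM in Vhigh.

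The sequences upstream of the NF-kB targets were set beside these values. Promoters, from 250 bases before to 50 after a start site in RefSeq on GRCm38.p6, were listed for 35 of the 40 members, 46 promoters in all. A core of the NF-kB element, GGGA and TTCC with any 2 bases between them, was searched on both strands. It was found in 482 of 32851 promoters (1.47%) and in 5 promoters of 4 members, *Nfkb2*, *Nfkbia*, *Tlr3* and *Ifngr2*. *Nfkbia* and *Nfkb2* are shown as textbook targets of NF-kB that stood at unlike levels, with a median over the 6 libraries of 52.3 RPKM for *Nfkbia* and 1.1 RPKM for *Nfkb2*. Capitals mark the matches, and a match is a description of the letters and not a measured binding site.
Nfkbia chr12:55492598-55492897 (minus strand): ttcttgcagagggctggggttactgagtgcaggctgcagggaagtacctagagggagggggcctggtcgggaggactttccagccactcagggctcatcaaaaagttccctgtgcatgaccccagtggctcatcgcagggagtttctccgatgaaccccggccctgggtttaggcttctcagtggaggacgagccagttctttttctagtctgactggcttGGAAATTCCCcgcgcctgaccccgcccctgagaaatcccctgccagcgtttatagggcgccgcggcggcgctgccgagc
Nfkb2 chr19:46305445-46305744 (plus strand): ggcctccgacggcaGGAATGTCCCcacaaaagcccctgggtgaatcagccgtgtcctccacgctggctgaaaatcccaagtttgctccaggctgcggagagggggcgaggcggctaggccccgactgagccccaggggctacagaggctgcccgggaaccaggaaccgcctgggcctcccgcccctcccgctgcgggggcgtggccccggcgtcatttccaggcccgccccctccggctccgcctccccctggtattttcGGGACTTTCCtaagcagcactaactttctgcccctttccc

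Of the 6 Toll-like receptors, none was above 3 counts in all 6 libraries. *Tlr2* and *Tlr4*, receptors for bacterial lipoproteins and lipopolysaccharide, had counts in 5 libraries each. *Tlr4* had 4.0, 13.5 and 12.9 CPM in Vmed and 0, 20.8 and 11.3 CPM in Vhigh. *Tlr2* had 4.92, 20.9 and 19.6 CPM in Vmed and 0, 3.5 and 23.9 CPM in Vhigh. The fractions overlapped for both, and neither had a count in Vhigh replicate 1.

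The receptors of nucleic acids were sparse. *Tlr3*, for double-stranded RNA, had 0, 12.2 and 5.97 CPM in Vmed and 0, 3.13 and 6.40 CPM in Vhigh. *Tlr7*, for single-stranded RNA, had 2.75, 1.08 and 14 CPM in Vmed and was above 0 in Vhigh in replicate 2 alone, at 7.46 CPM. *Tlr9*, for unmethylated DNA, had 0 counts in all 6 libraries, which allows between 0.25 and 0.36 CPM in a library at the floor of 3 counts. Exons of *Tlr9* share no base with another annotated gene, but whether its reads were lost as alignments that were not unique was not tested.

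*Tlr1*, the partner of *Tlr2*, and *Il1b*, the cytokine interleukin 1 beta made mainly by macrophages, did not pass the filter. *Tlr1* had 0, 64 and 110 counts in Vmed and 0, 6 and 0 in Vhigh. *Il1b* had 29, 0 and 81 counts in Vmed and 0 in each Vhigh library, so that it was seen in 2 of 3 Vmed libraries and in none of Vhigh. Fewer cells of a type and less RNA per cell cannot be told apart in such sorted bulk samples. Markers of macrophages and monocytes were also lower in Vhigh. Their summed level was 2338, 1232 and 1298 CPM in Vmed replicates 1, 2 and 3. In the same libraries *Tlr1* had 0, 64 and 110 counts and *Il1b* had 29, 0 and 81. Of the 16 tested markers of that list, 16 had a log2 fold change below 0. In edgeR's quasi-likelihood test 8 had an unadjusted p under 0.05, beside 2.04% of all genes, and none an adjusted p under 0.05. The summed level was 1232 to 2338 CPM in Vmed and 211 to 727 CPM in Vhigh. *Adgre1*, a defining surface marker gene of macrophages, had 60.1, 34.6 and 29.6 CPM in Vmed and 0, 0 and 0.25 CPM in Vhigh, while *Csf1r* had 29.6 to 54.4 CPM in Vhigh. The part of these cells in the values of *Il1b* and the Toll-like receptors was not tested.

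Transcripts of the adaptor, kinases and ligase below the receptors were present in every library. *Myd88*, the shared adaptor, had 26.9, 68.7 and 74.3 CPM in Vmed and 31.6, 116 and 101 CPM in Vhigh. It was higher in Vhigh in each pair, by 0.29, 0.60 and 0.44 in log2 CPM, and its log2 fold change was 0.48 (SE 0.74). These steps were small beside the difference between replicate 1 and the other replicates.

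*Irak4*, the first kinase bound by Myd88, had 20.1, 21.0 and 13.9 CPM in Vmed and 59.3, 22.5 and 17.2 CPM in Vhigh, with Vhigh replicate 1 alone set apart. Without that library its log2 fold change went from 0.87 to 0.0027. *Irak1*, the next kinase, had 26.2, 70.9 and 51.5 CPM in Vmed and 63.4, 120 and 15.9 CPM in Vhigh. *Traf6*, the ubiquitin ligase that follows, had 26.4, 87.0 and 15.6 CPM in Vmed and 38.6, 30.8 and 58.6 CPM in Vhigh, and a log2 fold change of 0.01. *Il1r1*, the signaling receptor of interleukin 1, had 18.9, 13.1 and 0 CPM in Vmed and 61.5, 15.5 and 9.22 CPM in Vhigh. It was higher in Vhigh in 3 of 3 pairs, and its log2 fold change of 1.47 (SE 1.73) fell to 0.08 without Vhigh replicate 1.

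Interferon receptors and *Jak1* had counts in every library. Of the 36 tested members 7 (19.4%) varied less than 4-fold across the libraries, beside 22.4% of all genes tested, and these were *Jak1*, the 4 receptor genes, *Rela* and *Nfkbia*. *Jak1*, the Janus kinase shared by both interferon receptors, had 164, 243 and 232 CPM in Vmed and 168, 224 and 318 CPM in Vhigh, with means of 213 ± 42.5 and 237 ± 75.4 CPM (SD, n = 3 each). Its log2 fold change was 0.13 (SE 0.46). *Ifngr1*, the ligand-binding chain of the interferon gamma receptor, had 178, 157 and 77.9 CPM in Vmed and 196, 214 and 162 CPM in Vhigh. It was higher in Vhigh in 3 of 3 pairs, by 0.20, 0.30 and 1.04 in log2 CPM, and Vmed replicate 1 lay above the lowest Vhigh library. *Ifngr2*, the second chain, went the other way, with 52.4, 31.8 and 107 CPM in Vmed and 28.7, 36.1 and 51.3 CPM in Vhigh, and a log2 fold change of -0.76 (SE 0.80).

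*Ifnar2* (chromosome 16, 91372783 to 91405589), a chain of the type I interferon receptor, came nearest to separating the fractions. It had 23.0, 25.9 and 48.5 CPM in Vmed and 49.6, 51.3 and 87.4 CPM in Vhigh, so that every Vhigh library was above every Vmed library by gene totals. By TMM-adjusted library sizes the fractions overlapped. By that scaling 0 of the 40 members separated the fractions in either direction, where 3.64% of all genes tested were higher and 5.3% lower in every Vhigh library. *Ifnar2* was higher in Vhigh in 3 of 3 pairs, by 1.16, 0.84 and 0.84 in log2 CPM. Its log2 fold change was 0.93 (SE 0.80, unadjusted p = 0.276), and in an exact two-sided permutation test of the 20 arrangements of log2 CPM p was 0.2, where 0.1 is the smallest possible. *Ifnar1*, the other chain, had 81.5, 243 and 114 CPM in Vmed and 109, 110 and 186 CPM in Vhigh, and a log2 fold change of -0.12 (SE 0.57).

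Per kilobase of exon, *Ifnar1* exceeded *Ifnar2* in 6 of 6 libraries. The ratio of RPKM was 1.99, 5.26 and 1.32 in Vmed replicates 1, 2 and 3 and 1.23, 1.2 and 1.19 in Vhigh. The lowest Vmed ratio was close to the highest Vhigh ratio, and the difference was not tested. *Ifngr1* exceeded *Ifngr2* in 5 of 6 libraries, with ratios of 4.49, 6.55 and 0.97 in Vmed and 9.03, 7.84 and 4.18 in Vhigh. Over all members, the highest median RPKM across libraries was that of *Ifngr1* (59.7), followed by *Nfkbia* (52.3), *Jak1* (31.5), *Myd88* (27.8), *Tnfrsf1a* (27.6) and *Rela* (25.1). The ranges of these genes overlapped, since *Nfkbia* alone spanned 18.2 to 72.6 RPKM, and their order is therefore not fixed by these libraries.

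The other kinases varied more than *Jak1*. *Jak2* had 15.1, 14.1 and 6.90 CPM in Vmed and 0.19, 30.9 and 15.1 CPM in Vhigh. *Tyk2*, which pairs with Jak1 at the type I receptor, had 3.89, 6.51 and 41.6 CPM in Vmed and 16.4, 23.8 and 41.3 CPM in Vhigh. *Jak1* exceeded both per kilobase of exon in 6 of 6 libraries, with ratios of RPKM of 5.29 to 40.1 against *Tyk2* and 5.05 to 625 against *Jak2*. The highest of these rests on 2 counts of *Jak2* in Vhigh replicate 1.

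*Stat2* (chromosome 10, 128270559 to 128292849), a subunit of the factor that type I interferon activates, had the smallest p of the members. It had 2.40, 105 and 37.5 CPM in Vmed replicates 1, 2 and 3 and 0, 5.34 and 21.5 CPM in Vhigh. It was lower in Vhigh in each pair, by -3.77, -4.38 and -0.81 in log2 CPM, and the fractions overlapped because Vmed replicate 1 was low. The log2 fold change was -2.42 (SE 1.76, unadjusted p = 0.219) and -3.70 (SE 1.38, unadjusted p = 0.0736) with the replicate block. With both libraries of replicate number 1 left out it was -2.39 (unadjusted p = 0.0458, adjusted p = 1), in a comparison of 2 against 2 libraries chosen after seeing the data, where 3.23% of all genes tested had an unadjusted p under 0.05. Without Vmed replicate 2, the library with the highest value, it was -1.23 (unadjusted p = 0.612), and over the 6 libraries left out in turn it ranged from -4.24 to -1.23, all by edgeR's quasi-likelihood test.

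Of the factors that act with or near Stat2, *Irf9* and *Irf1* had log2 fold changes of -0.49 (SE 1.7) and -0.17 (SE 1.8). That of *Irf7* was also below 0, and that of *Irf3* was 0.93, or 0.44 without Vhigh replicate 1. Whether any of them differed from *Stat2* was not tested. *Irf9*, the partner of Stat2, had 32.7, 13.6 and 2.78 CPM in Vmed and 0.09, 23.9 and 14.4 CPM in Vhigh. Its pair differences were -6.84, 0.66 and 2.28 in log2 CPM. *Irf1*, an early target of interferon gamma, had 2.29, 28.2 and 32.7 CPM in Vmed and 0, 19.6 and 38.4 CPM in Vhigh. *Irf3*, which is activated below Toll-like and cytosolic receptors, had 20, 22.1 and 59.7 CPM in Vmed and 95.7, 38.6 and 59.0 CPM in Vhigh. *Irf7*, which interferon itself induces, had 227, 61 and 0 counts in Vmed and 0, 0 and 56 in Vhigh. Each of its libraries with counts faced a library at 0 in the same-numbered pair, and its log2 fold change of -2.84 (SE 2.64) rests on those zeros.

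*Isg15* (chromosome 4, 156199424 to 156200818), a ubiquitin-like protein and one of the strongest interferon-induced genes, had 1 count in all 6 libraries together, in Vhigh replicate 3. It was thus at or under the floor in every library, a level at which no comparison could be made, while the receptor genes and *Jak1* had counts in every library. Other interferon pathway genes were not all so low, and *Ifitm1*, given below, had 14.1 to 375 CPM. The exons of *Isg15* share no base with another annotated gene. Alignments that were not unique were left out of the gene counts, and their part in the low count of *Isg15* was not tested. A core of the interferon-stimulated response element, GAAA repeated with any 2 bases between the copies, was searched on both strands and found in 1131 of the 32851 promoters (3.44%) and in 1 promoter each of *Isg15*, *Stat2*, *Myd88* and *Tnfrsf1b*. *Isg15*, *Stat2* and *Myd88* are shown because *Isg15*, with 3 overlapping matches, had 1 count in all, *Stat2* was uneven and *Myd88* was found in every library.
Isg15 chr4:156200769-156201068 (minus strand): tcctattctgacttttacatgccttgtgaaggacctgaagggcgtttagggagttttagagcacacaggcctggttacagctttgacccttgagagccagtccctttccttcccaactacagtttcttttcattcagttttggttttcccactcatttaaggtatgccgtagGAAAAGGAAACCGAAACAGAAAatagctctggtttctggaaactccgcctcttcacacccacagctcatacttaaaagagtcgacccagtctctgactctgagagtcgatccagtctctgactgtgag
Stat2 chr10:128270248-128270547 (plus strand): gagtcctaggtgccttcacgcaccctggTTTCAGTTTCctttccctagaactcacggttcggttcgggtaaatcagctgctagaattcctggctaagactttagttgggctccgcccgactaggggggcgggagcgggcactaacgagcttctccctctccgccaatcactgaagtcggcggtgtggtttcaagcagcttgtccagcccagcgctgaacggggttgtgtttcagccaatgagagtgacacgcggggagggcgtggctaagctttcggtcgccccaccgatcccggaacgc
Myd88 chr9:119339969-119340268 (minus strand): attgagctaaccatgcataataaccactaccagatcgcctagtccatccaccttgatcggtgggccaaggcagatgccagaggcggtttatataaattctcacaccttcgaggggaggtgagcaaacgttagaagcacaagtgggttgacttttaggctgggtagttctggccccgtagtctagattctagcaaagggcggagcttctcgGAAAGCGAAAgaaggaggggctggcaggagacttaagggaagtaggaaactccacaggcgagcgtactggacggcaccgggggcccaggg

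By replicate number, 6 of the 36 tested members were higher in Vhigh in 3 of 3 pairs, *Nfkb1*, *Ikbkb*, *Myd88*, *Il1r1*, *Ifnar2* and *Ifngr1*, beside 13.9% of all genes tested. The 2 members that were lower in 3 of 3 pairs were *Nfkbia* and *Stat2*, beside 16.5% of all genes. The remaining 28 had pairs in both directions or a pair at 0 counts in both fractions. The widest difference was that of *Traf2* in replicate 1, -8.51 in log2 CPM, followed by *Tnfaip3* in replicate 2 (7.37) and *Irf7* in replicate 1 (-7.10). With the replicate number as a block, 0 members had an adjusted p under 0.05 and 0 had an unadjusted p under 0.05 in edgeR's quasi-likelihood test, beside 0% and 4.16% of all genes.

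**Figure D4:**
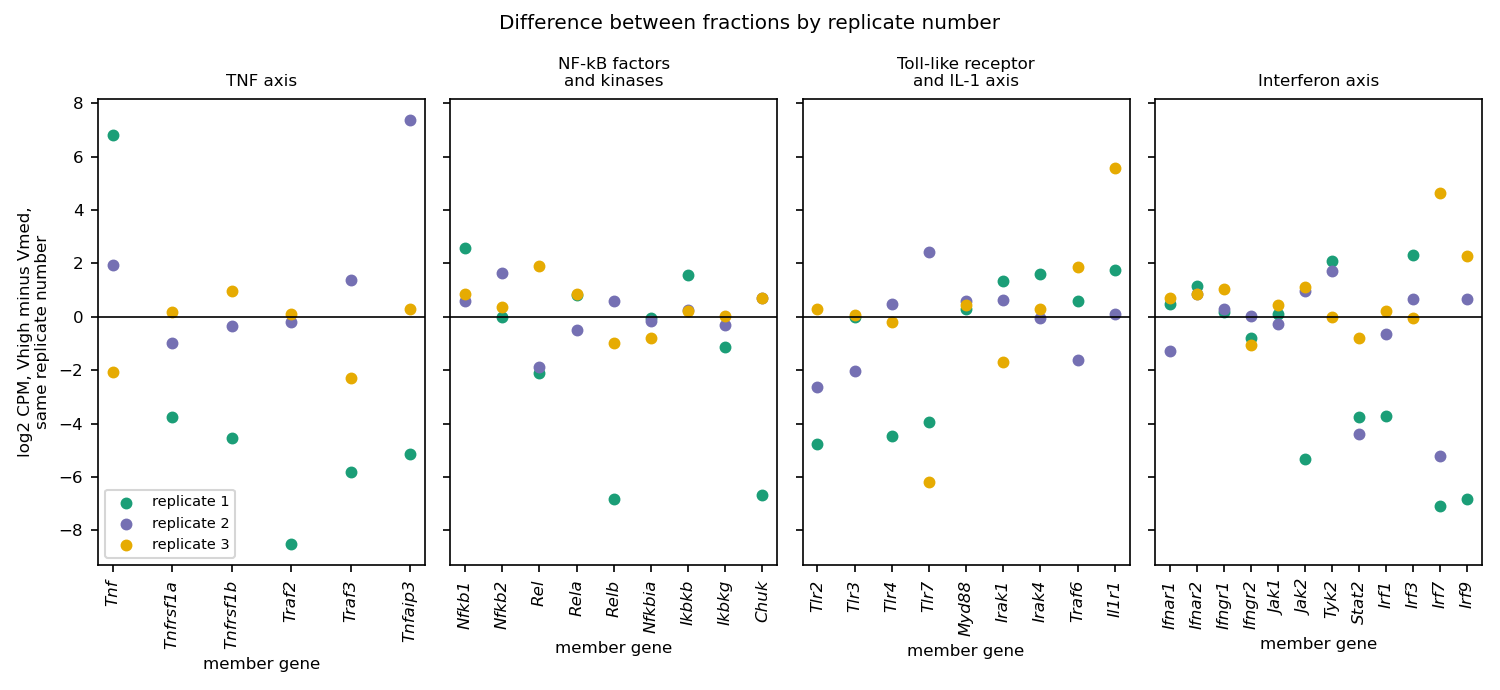
Difference in log2 CPM between Vhigh and Vmed libraries of the same replicate number (y axis) for each tested member (x axis, one panel per role), colored by replicate number. Most of the differences below -4 belong to replicate 1, while *Nfkb1*, *Ikbkb*, *Myd88*, *Il1r1*, *Ifnar2* and *Ifngr1* have the points of all replicates above 0.

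The summed level of each group was compared by library. The TNF axis summed to 110, 210 and 238 CPM in Vmed and 58.5, 211 and 242 CPM in Vhigh replicates 1, 2 and 3, so replicates 2 and 3 nearly coincided and replicate 1 was lower in Vhigh. NF-kB factors and kinases summed to 246, 347 and 435 CPM in Vmed and 264, 415 and 531 CPM in Vhigh. The Toll-like receptor and interleukin 1 axis summed to 134, 316 and 227 CPM in Vmed and 254, 339 and 244 CPM in Vhigh, and the interferon axis to 601, 898 and 760 against 664, 777 and 999 CPM. For each group the fractions overlapped. The median log2 fold change over the tested genes was -0.02 for the TNF axis, 0.15 for NF-kB, 0.01 for Toll-like receptors and interleukin 1 and 0.0040 for interferon.

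Several marker lists of cell types differed more. Over all genes tested, 48.9% had a log2 fold change above 0 and 2.04% an unadjusted p under 0.05 in edgeR's quasi-likelihood test. No gene, markers included, had an adjusted p under 0.05 in that test. Mesenchyme and mural markers summed to 2440 to 5531 CPM in Vmed and 372 to 833 CPM in Vhigh, with 11 of 12 tested genes below 0 and 7 at an unadjusted p under 0.05. Hematopoietic stem and progenitor markers, which include *Kit*, summed to 509 to 1254 CPM in Vmed and 1153 to 3204 CPM in Vhigh, with 14 of 14 above 0 and 5 at an unadjusted p under 0.05. Endothelial markers summed to 1471 to 6667 and 1162 to 4397 CPM (14 of 15 below 0), erythroid markers to 188 to 602 and 101 to 233 CPM (5 of 6 below 0), megakaryocyte and platelet markers to 600 to 1133 and 163 to 455 CPM (7 of 9 below 0), and granulocyte and mast cell markers to 331 to 528 and 822 to 1305 CPM (5 of 6 above 0). The part of these cells in the members' values was not tested.

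**Figure D5:**
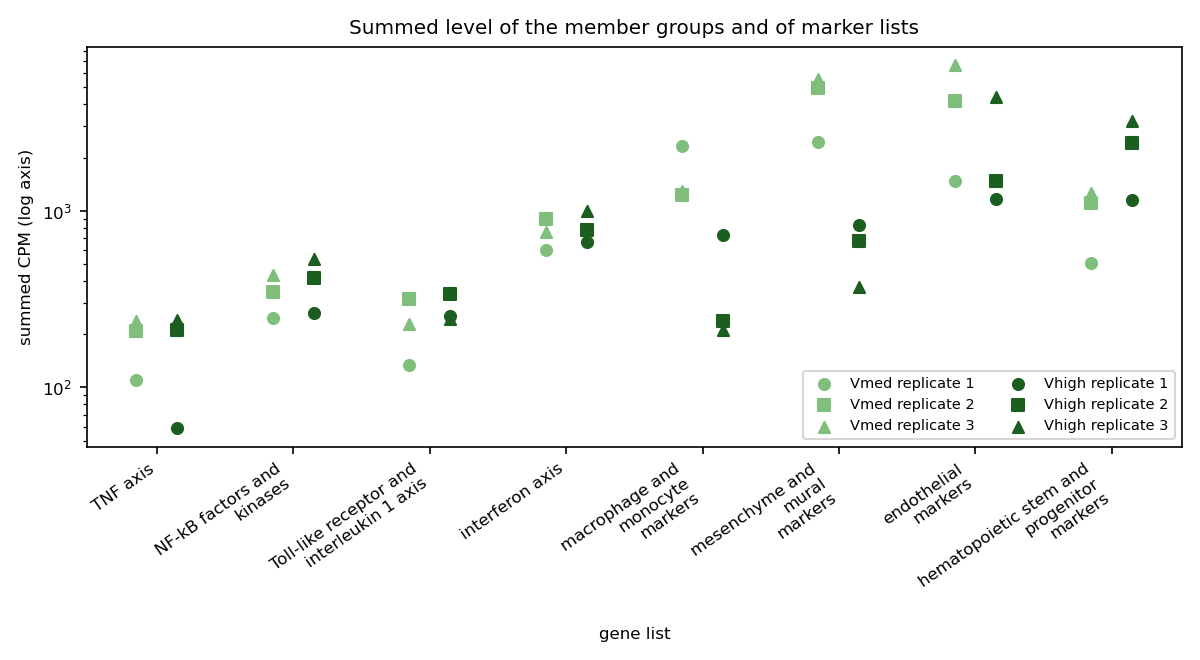
Summed CPM (y axis, log scale) of the 4 member groups and of 4 marker lists (x axis) in each library, with light points for Vmed and dark points for Vhigh and a shape for each replicate number. The member groups overlap between the fractions, while every Vhigh library lies under every Vmed library for the macrophage and mesenchyme markers.

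Further genes of the same pathways were read from lists written alongside the members. Of 26 other TNF and NF-kB genes, 24 were tested, with 16 above 0 and 8 below, a median log2 fold change of 0.33 and 0 at an unadjusted p under 0.05. The smallest unadjusted p was 0.203, for the kinase gene *Map3k8*, which had 5, 98 and 85 counts in Vmed and 0, 17 and 10 in Vhigh. Of 26 other Toll-like receptor and interleukin 1 genes, 16 were tested, with 5 above 0 and 11 below, a median of -0.32 and 0 at an unadjusted p under 0.05. With the replicate block 1 of them passed that level, *Ly86*, which encodes the MD-1 partner of a Toll-like receptor homolog, beside 4.16% of all genes. It had 69.9, 30.6 and 19.4 CPM in Vmed and 32.1, 0.37 and 0.17 CPM in Vhigh, and its log2 fold change with the block was -5.06 (unadjusted p = 0.0443, edgeR's quasi-likelihood test), against -1.79 (unadjusted p = 0.331) without it. It was lower in Vhigh in all pairs, and the fractions overlapped. *Unc93b1*, the carrier of endosomal Toll-like receptors, had the smallest unadjusted p of the list without the block, 0.156, with 62.8, 9.52 and 41.5 CPM in Vmed and 0, 6.72 and 12.4 CPM in Vhigh. It was lower in Vhigh in all pairs, though the fractions overlapped.

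Of 38 other interferon pathway genes, 30 were tested, with 13 above 0 and 17 below and a median log2 fold change of -0.22. At an unadjusted p under 0.05, 2 of them were higher in Vhigh and 0 lower, beside 2.04% of all genes. *Ifih1*, which encodes the cytosolic RNA sensor MDA5, had 0, 2.29 and 0 CPM in Vmed and 98.4, 5.06 and 50.6 CPM in Vhigh. Every Vhigh library was above every Vmed library, with an unadjusted p of 0.0164 (adjusted p = 0.9998, edgeR's quasi-likelihood test), and the unadjusted p was 0.0611 with the replicate block. *Ifitm1*, a membrane protein that restricts virus entry, had 91.2, 31.8 and 14.1 CPM in Vmed and 375, 133 and 73.2 CPM in Vhigh. It was higher in Vhigh in 3 of 3 pairs and overlapped between fractions, with a log2 fold change of 2.09 (SE 0.84, unadjusted p = 0.0368, adjusted p = 0.9998). With the replicate block its log2 fold change was 2.13 (unadjusted p = 0.00105, edgeR's quasi-likelihood test). In that fit 4.16% of all genes had an unadjusted p under 0.05 and 0% an adjusted p under 0.05.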

How the data were processed

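RNA of sorted cells was amplified by the SMARTer protocol and sequenced as short single reads. Alignment was by Tophat/Bowtie on mouse build GRCm38/mm10, and the authors deposited the unnormalized counts per gene. HTSeq and Bowtie 1.1.2 stand in the submitters' processing notes. The annotation and the strand setting are not given in the sources used here. Of the 40 members, 14 share exonic bases with another annotated gene (at most 18.1% of the exon length). For 10 of them such a gene is in the count tables, so reads there could be lost or misplaced.

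The filterByExpr rule left 12688 of 24062 genes, which were scaled by TMM and compared in edgeR 4.0.16 (quasi-likelihood test, fraction as the only term, Benjamini-Hochberg at 0.05) in R 4.3.3. The standard error comes from the fitted model and the quasi-likelihood dispersion. CPM in the text are counts over the gene total of each library, pair differences are log2 CPM by TMM-adjusted sizes with a prior count of 2, and RPKM divides CPM by the exon-union length of GENCODE M21. Counts on genes were 22.8 to 45% of all lines of the tables, and the unassigned lines, mostly alignments that were not unique (41.3 to 57.7%), stayed out of totals. Lines on no annotated gene were 18, 28.1 and 8% in Vmed replicates 1, 2 and 3. In Vhigh they were 16.5, 35.6 and 7.09%, so this share went with the replicate number. Same-numbered libraries deviated together (r of 0.212, 0.207 and 0.388 across genes), so the replicate block was also fitted, with the pairing from the replicate numbers in the labels. Alternatives were RLE, no filter, the likelihood ratio test, DESeq2 1.42.0, the block, and libraries left out. All p-values measure the spread between these 6 libraries. The procedure was tested on simulated data. Limits on the result were set only where the simulated spread between replicates was well below that of these data (biological coefficient of variation 1.16).

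Gene totals ranged from 8296831 to 12035206. The floor of 3 counts covers counting error only, as reads carry no molecular identifiers. The members and lists were chosen with earlier results of these data known. All members were named. Of the other pathway lists, genes with an unadjusted p under 0.05 were named, or the gene with the smallest p. Of marker lists, sums and at most 3 genes were given. *Emr1* in the tables was read as *Adgre1* through RefSeq synonyms. Cufflinks values and the authors' pathway analysis were not used here.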

Additional observations from a re-analysis of the deposited data

How the results depend on the processing

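Under all alternatives of normalization, filter, test and block, and with libraries left out, 0 members had an adjusted p under 0.05, and the number of members above 0 stayed between 13 and 24. The number of genes called among all genes moved from 0 to 37 with no filter (13 higher in Vhigh), 21 with the likelihood ratio test (11 higher), 51 with DESeq2 (20 higher) and 74 with the likelihood ratio test and the replicate block (26 higher), and stayed at 0 with the block in the quasi-likelihood test. With single libraries left out it ranged from 0 to 1, the 1 gene without Vhigh replicate 1. The number of members at an unadjusted p under 0.05 moved from 0 to 1 with no filter (*Il1b*), with the likelihood ratio test and the replicate block (*Stat2*), with both libraries of replicate number 1 left out (*Stat2*), and ranged from 0 to 1 with single libraries left out (*Il1b* without Vmed replicate 2, *Irf7* without Vhigh replicate 3). By plain gene totals 1 member separated the fractions (*Ifnar2*), against 0 by TMM. With both libraries of replicate number 1 left out, an alternative added after seeing the data, 7 members were higher and 2 lower in every Vhigh library, beside 15% and 13.7% of all genes tested. The prior count of 0.5 changed no count of pairs. The block gave the opposite sign for *Tnfrsf1b* (-1.15 by both tests), *Chuk* (-0.83 and -0.84) and *Jak2* (-0.45 by both), and ended no call. *Traf6* turned to -0.026 with RLE and with DESeq2. Leaving out both libraries of replicate number 1 turned *Tnf* to -1.84, *Tlr4* to 0.19, *Traf6* to -0.21 and *Irf9* to 1.16.

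With each library left out in turn, 17 of 36 members kept their sign and 19 changed it. The log2 fold change then ranged from -1.30 to 6.83 for *Tnf*, -1.53 to 0.28 for *Tnfrsf1a*, -1.06 to 0.85 for *Tnfrsf1b*, -0.39 to 2.87 for *Nfkb2*, -1.66 to 0.47 for *Rel*, -0.85 to 0.037 for *Nfkbia*, -0.26 to 0.80 for *Ikbkb*, -0.62 to 0.13 for *Ikbkg* and -0.32 to 0.74 for *Chuk*. It ranged from -2.02 to 0.015 for *Tlr3*, -0.88 to 0.55 for *Tlr4*, -8.86 to 0.14 for *Tlr7*, -0.17 to 0.88 for *Irak1*, -0.38 to 0.93 for *Traf6*, -0.39 to 0.39 for *Ifnar1*, -0.12 to 0.27 for *Jak1*, -0.74 to 0.80 for *Jak2*, -1.21 to 0.42 for *Irf1* and -1.31 to 0.57 for *Irf9*. The cause was not tested. The floor of 3 counts corresponds to 0.25 to 0.36 CPM, and Vhigh replicate 1, with the most members at or under it, did not have the lowest gene total.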
